A study of Mus musculus with 16 samples.

Results

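Vgf and Ptprn are genes of the dense-core secretory granule, the regulated storage vesicle of neurons and endocrine cells. They were selected by gene symbol from the deposited matrix, as 2 of its 20525 genes, because their values had been seen to be large after glycerol and near 0 after PBS. Both passed the filter used for testing (4 or more libraries with 10 or more normalized counts), as did 18035 genes in all. They could pass it only through their glycerol libraries, so the glycerol against PBS values of both genes are given as a description, without a test. The difference between genotypes after glycerol was not named in the selection and was tested. It uses the same glycerol values that the genes were chosen for, so its p-values are not free of the selection.

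RNA was sequenced from lysates of frozen kidney sections, 30 µm thick, taken from mice aged 8 weeks on a background that the labels give as C56BL/6. The 4 groups of 4 libraries each were C3-/- mice given glycerol, C3-/- mice given PBS, WT mice given glycerol and WT mice given PBS. C3-/- is a deficiency of complement component C3, on which the activation routes of complement converge. Glycerol, 7.5 ml/kg of a 50% solution, was injected into thigh muscle to break down muscle fibres (rhabdomyolysis), which loads the kidney with heme proteins and injures its tubules. The labels name no time of sampling after the injection, no sex and no construct for the C3 allele. Nothing in them says that the 4 libraries of a group came from separate mice, so p-values measure the spread between these libraries. In both groups labelled C3-/- some libraries held Y-linked transcripts and others did not, so each of these groups holds more than 1 mouse, while the spread within the WT groups may be technical.

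VGF is a secreted granule protein that is cut into many short peptides. In neurons its gene is known as a target of cAMP signalling through CREB. Ptprn encodes IA-2 (also called ICA512), a protein of the granule membrane that belongs by sequence to the tyrosine phosphatases but lacks their catalytic activity, and that is known in pancreatic beta cells for its part in granule storage and as an autoantigen of type 1 diabetes. Both genes are known mainly from the nervous system and from endocrine tissue.

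In build GRCm38, Vgf (ENSMUSG00000037428) lies on the plus strand at chr5:137026392-137033351, with 4 annotated transcripts of up to 5 exons and 2973 exonic bases. Ptprn (ENSMUSG00000026204) lies on the minus strand at chr1:75247027-75264502, with 6 annotated transcripts, of which 4 are coding, up to 23 exons and 4249 exonic bases. The stretch upstream of 1 start site of Ptprn is shown because CREB, a regulator known for the Vgf gene, binds the cAMP response element TGACGTCA and its core TGACG. This stretch holds the 220 bases before the start site at position 75264213, at chr1:75264214-75264433 on the minus strand (RefSeq, GRCm38.p6), and lies within an intron of the longer transcript. Capitals mark the core on either strand.

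Ptprn upstream stretch: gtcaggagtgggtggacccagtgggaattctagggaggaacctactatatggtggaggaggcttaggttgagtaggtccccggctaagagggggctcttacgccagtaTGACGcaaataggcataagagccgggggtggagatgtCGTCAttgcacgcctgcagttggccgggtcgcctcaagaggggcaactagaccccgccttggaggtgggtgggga

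The core TGACG was found 112 to 108 bases before the start site on the strand shown and, as CGTCA, 75 to 71 bases before it on the other strand. Of 32851 windows of the same length before annotated start sites, 16.4% held the core on at least 1 strand. The full element TGACGTCA was not in the Ptprn stretch and was held by 1.47% of windows. Neither the AP-1 motif TGANTCA, in 6.05% of windows, nor the amino acid response motif TGATGCAA, in 0.709%, was in the stretch. The search covered both strands, and TGACG is part of TGACGTCA. Of the 2 genes, 1 had a matching entry among the promoter sequences used here.

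Library sums of the normalized counts ranged over 25.8 M to 38.4 M, and sequencing depth is unknown. Kidney markers were present, with Umod of the thick ascending limb at 19329 or more and Nphs1 of the podocyte at 594 or more normalized counts in all 16 libraries. C3, the targeted gene, ranged between 1457 and 8008 normalized counts in the glycerol libraries labelled C3-/- and between 1712 and 4718 in WT glycerol libraries, and between 564 and 1140 in the PBS libraries labelled C3-/- and between 335 and 471 in WT PBS libraries. The signal of the whole gene was thus not lower in the libraries labelled C3-/-, and every direction drawn from that genotype below rests on the label. The sample numbers in the descriptions run through 1 to 13 in 13 libraries (number set 1) and repeat 3, 4 and 5 in the other 3 (number set 2: replicates 1 and 3 of the glycerol libraries labelled C3-/- and replicate 4 of WT glycerol). WT glycerol replicate 4 stood apart, with 3374 genes listed at 0 against 190 to 982 in the others. The Y-linked gene Ddx3y reached 100 normalized counts in 11 libraries, which were all 8 WT libraries, replicate 4 of the PBS libraries labelled C3-/- and replicates 3 and 4 of the glycerol libraries labelled C3-/-. The remaining libraries, all labelled C3-/-, held Xist, a transcript of female cells, at 16098 or more normalized counts, against at most 105 in those 11. Sex and the genotype label thus cannot be fully told apart.

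Vgf was high after glycerol in WT kidneys, 10.4-fold lower in mean after glycerol in kidneys labelled C3-/-, and at or near 0 in every PBS library. In the glycerol libraries labelled C3-/-, Vgf had normalized counts of 120, 28.6, 7.83 and 38.2 in replicates 1 to 4. The PBS libraries labelled C3-/- were all listed at 0 for Vgf. The WT glycerol libraries had 299, 878, 270 and 574 normalized counts of Vgf, and the WT PBS libraries had 4.24, 0.840, 0 and 0.920. The highest glycerol library labelled C3-/- stood below the lowest WT glycerol library, and the lowest glycerol library labelled C3-/- stood above every PBS library. No glycerol group overlapped its PBS group. The 2 PBS groups met at 0.

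The mean of Vgf was 48.6 ± 49.2 normalized counts in the glycerol libraries labelled C3-/- and 505 ± 284 in WT glycerol libraries (SD, n = 4 each), a 10.4-fold lower mean. On the log2(normalized count + 1) scale the difference, C3-/- minus WT, was -3.75 ± 0.68 (SE, limma, Benjamini-Hochberg adjusted p = 0.00231, 95% interval -5.2 to -2.3), lower in all 4 libraries labelled C3-/-. The fit shares 1 estimate of the spread over the 4 groups. The PBS libraries labelled C3-/-, all at 0 for Vgf, add nothing to that spread. The SE and adjusted p may thus be too small for a difference between the 2 glycerol groups. Vgf was also chosen for high values after glycerol, which this difference uses. The difference was the 52nd lowest of the 18035 tested. In this comparison 4.85% of genes tested were called lower and 6.38% higher at an adjusted p below 0.05. In 5.07% of the genes every library labelled C3-/- stood below every WT library. The difference in Vgf stayed past the threshold in each of 22 alternatives, among them no filter on low values (adjusted p = 0.00228) and every omission of 1 library, and ranged between -4.37 and -3.11. Each alternative shares the spread over the groups in the same way. In the 13 libraries of number set 1, with 2 glycerol libraries labelled C3-/- and 3 of WT, it was -3.6 (limma, adjusted p = 0.00133), and without WT glycerol replicate 4 it was -3.64 (adjusted p = 0.00445). With number set and Y-linked transcripts as terms it was -4.28 (limma, adjusted p = 0.000971). Between libraries with Y-linked transcripts alone, Vgf had 7.83 and 38.2 normalized counts in replicates 3 and 4 of the glycerol libraries labelled C3-/-, and 270 to 878 in the 4 WT glycerol libraries.

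The glycerol response of Vgf is described without a test. In WT kidneys the log2 difference between glycerol and PBS was 7.76 ± 0.68 (SE), the 7th highest of the 18035 genes tested, and the mean was 337 times that of the PBS libraries. In kidneys labelled C3-/- no fold change is given, since all 4 PBS libraries were listed at 0. In WT kidneys 12.5% of genes tested were called higher and 13.3% lower after glycerol, and 18.2% had every glycerol library above every PBS library. In kidneys labelled C3-/- the shares were 3.68% higher, 1.96% lower and 9.53% with every glycerol library above every PBS library. Nothing is read from these shares for the 2 genes, which were chosen on the same values. The interaction of genotype and glycerol, that is the log2 glycerol response labelled C3-/- minus that of WT, was -2.7 ± 0.96 for Vgf with an adjusted p of 0.286 in limma, and its 95% interval was -4.75 to -0.65, in a contrast where 0.438% of genes were called in either direction. This value uses the fitted glycerol difference of both genotypes, and the genes were chosen on their glycerol responses. It also depends on the constant added before taking logarithms, because the PBS libraries are at or near 0. With 8 in place of 1 it was -3.18 (limma, adjusted p = 0.0491). Whether it passes the threshold thus turns on that constant, and nothing is read from it.

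**Figure D1:**
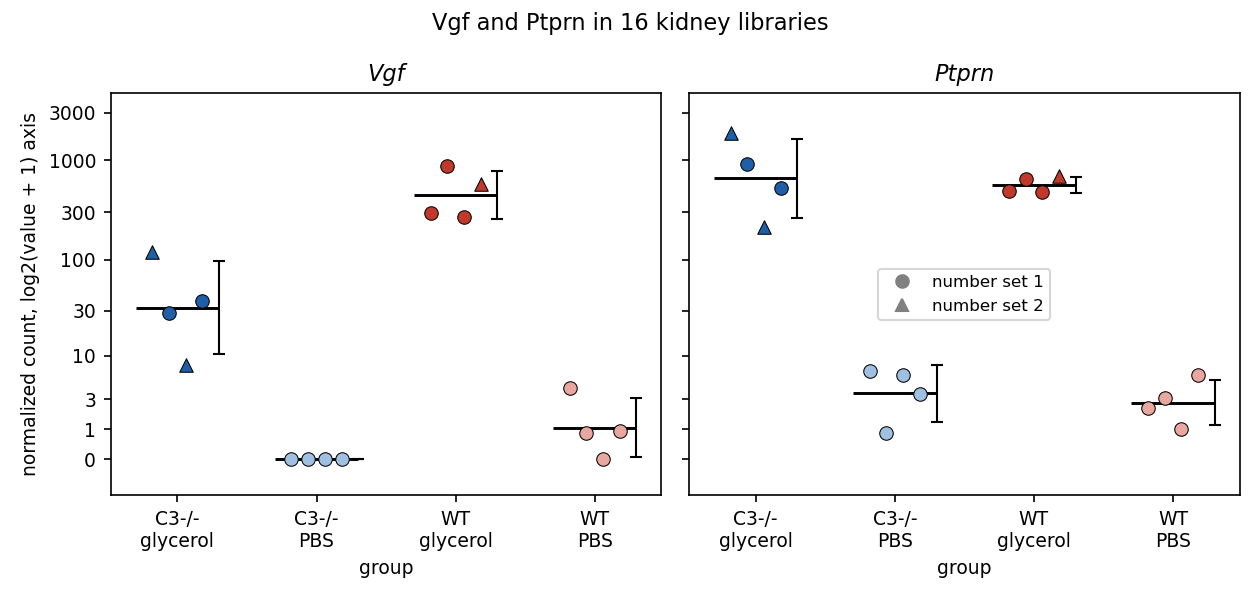
Normalized counts of Vgf (left) and Ptprn (right) in each of 16 kidney libraries, on a log2(value + 1) axis, by group, with group means as lines, 1 SD on that scale as bars, and circles and triangles for number sets 1 and 2. Vgf lies between 7.83 and 120 in the glycerol libraries labelled C3-/- and between 270 and 878 in WT glycerol libraries, while the Ptprn values of these groups overlap.

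Ptprn was high after glycerol in both genotypes. In the glycerol libraries labelled C3-/-, Ptprn had normalized counts of 1881, 912, 215 and 529 in replicates 1 to 4, and in the PBS libraries labelled C3-/- it had 6.73, 0.819, 5.96 and 3.57. The WT glycerol libraries had 490, 644, 485 and 694 normalized counts of Ptprn, and the WT PBS libraries had 2.25, 3.13, 1.03 and 5.99. The glycerol libraries labelled C3-/- held both the highest and the lowest of the 8 glycerol values, and the WT values fell within their range. Every glycerol library stood above every PBS library, and the 2 PBS groups overlapped.

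The mean of Ptprn after glycerol was 884 ± 723 normalized counts in libraries labelled C3-/- and 578 ± 107 in WT libraries (SD, n = 4 each), a ratio of 1.53. The log2 difference, C3-/- minus WT, was 0.22 ± 0.6 (SE, limma, adjusted p = 0.865), and its 95% interval of -1.06 to 1.49 includes differences of either sign. The sign rested on replicate 1 of the glycerol libraries labelled C3-/-, without which the difference was -0.28, and it was also negative, at -0.36, with number set and Y-linked transcripts as terms. As a description, the glycerol against PBS difference of Ptprn was 7.18 ± 0.6 on the log2 scale in kidneys labelled C3-/-, the 4th highest of the 18035 genes, and 7.27 ± 0.6 in WT kidneys, the 10th highest. The glycerol means were 207 and 186 times the PBS means in kidneys labelled C3-/- and WT kidneys. The difference between the 2 glycerol responses of Ptprn was -0.09 ± 0.85 (limma, adjusted p = 0.996, 95% interval -1.89 to 1.72), and its sign turned in 9 of 22 alternatives.

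The 2 genes therefore stood in different proportion to each other in the glycerol libraries of each genotype. The ratio of Vgf to Ptprn normalized counts was 0.0637, 0.0314, 0.0365 and 0.0723 in replicates 1 to 4 of the glycerol libraries labelled C3-/-. In WT glycerol libraries the ratio of Vgf to Ptprn was 0.610, 1.36, 0.556 and 0.827. The highest ratio in a library labelled C3-/- was below the lowest WT ratio. Among the libraries labelled C3-/- the ratio (0.051 ± 0.0201) varied less, in relative terms, than Ptprn itself (884 ± 723). Among WT glycerol libraries the ratio (0.838 ± 0.367) varied more, in relative terms, than Ptprn (578 ± 107, SD, n = 4 each). Replicate 1 of the glycerol libraries labelled C3-/- was highest of that group for both genes and replicate 3 lowest for both. Per kilobase of annotated exon, the level of Vgf was 16.4 ± 16.5 and that of Ptprn 208 ± 170 normalized counts after glycerol in libraries labelled C3-/-. In WT glycerol libraries the levels per kilobase were 170 ± 95.4 for Vgf and 136 ± 25.1 for Ptprn (SD, n = 4 each).

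**Figure D2:**
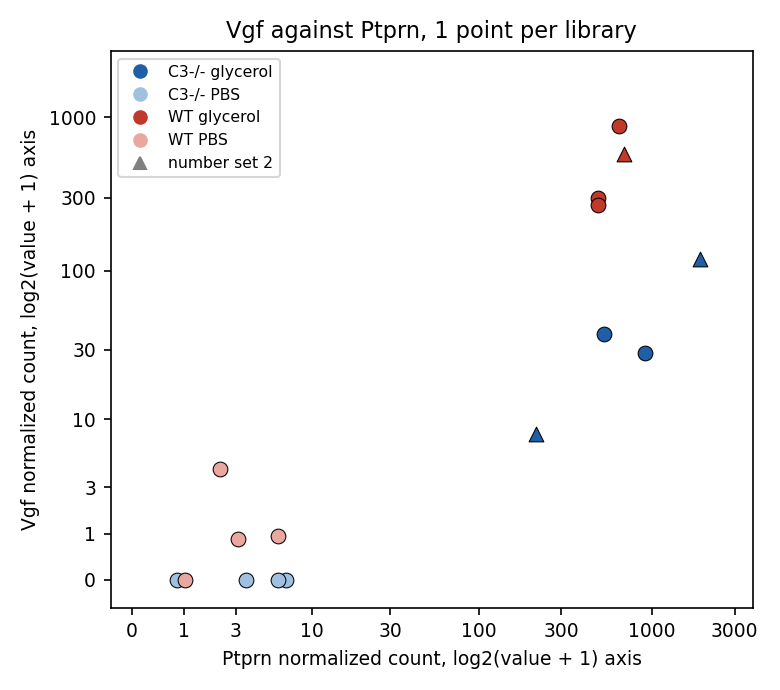
Vgf (vertical axis) against Ptprn (horizontal axis) normalized counts on log2(value + 1) axes, with 1 point for each of 16 libraries, coloured by group, and triangles for number set 2. All 4 glycerol libraries labelled C3-/- lie below the 4 WT glycerol libraries in Vgf, with Ptprn values of 215 to 1881 that reach beyond the 485 to 694 of WT on both sides, and the PBS libraries of both genotypes lie at the low end of both axes.

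Markers of injured tubule moved with Vgf between the genotypes. The 4 markers examined (Havcr1, Lcn2, Krt20 and Sox9) summed to between 1610 and 14900 normalized counts in the glycerol libraries labelled C3-/- and between 50236 and 88113 in WT glycerol libraries, and to between 78.5 and 233 and between 116 and 221 in the PBS libraries labelled C3-/- and of WT. After glycerol 3 of the 4 were called lower in libraries labelled C3-/-, where 4.85% of all genes tested were. Sox9 had the largest difference of the 4, at -4.48 ± 0.43 (limma, adjusted p = 1.06e-05). Havcr1, which encodes the tubule injury protein KIM-1, differed by -3.73 ± 0.57 (limma, adjusted p = 0.000706), a log2 difference close in size to that of Vgf. Lcn2, which encodes the iron-carrier-binding protein NGAL, differed by -2.79 ± 0.65 (limma, adjusted p = 0.0115), and Krt20 by -2.34 ± 1.06 (adjusted p = 0.186). The part of the extent of injury in the difference in Vgf was not tested. In sections of whole kidney, fewer cells that express Vgf and less Vgf RNA per cell cannot be told apart.

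The receptors reported for peptides of VGF were both tested, and neither differed past the threshold between genotypes after glycerol in all 16 libraries. C3ar1, the receptor of the complement fragment C3a, which in rodent cells has been reported to bind the VGF peptide TLQP-21, averaged 70.1 ± 74.8 normalized counts after glycerol in libraries labelled C3-/- and 65.8 ± 23.4 in WT libraries (SD, n = 4 each). Its log2 difference, C3-/- minus WT, was -0.34 ± 0.5 (limma, adjusted p = 0.729), although in number set 1 alone C3ar1 was called lower. C1qbp, a mitochondrial and surface protein first known as a C1q-binding protein, was called higher after glycerol in WT kidneys, by 0.43 ± 0.14 (limma, adjusted p = 0.0327). Over omissions of 1 library that call was lost, with an adjusted p of up to 0.0918, without any 1 of replicates 1, 2 and 3 of WT glycerol or of WT PBS. In kidneys labelled C3-/- the difference in C1qbp was 0.49 ± 0.14 (limma, adjusted p = 0.0514).

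Other genes of the dense-core granule were described as a list, of which few members were called after glycerol in all 16 libraries. The list of 39 further granule genes (cargo, peptide-processing enzymes, and membrane and release proteins) had values for 23, of which 20 passed the filter. After glycerol none of the 20 was called in kidneys labelled C3-/-, where limma gave 5 an unadjusted p below 0.05, and 2 were called higher and 1 lower in WT kidneys. Of all genes tested, 3.68% were called higher and 1.96% lower in kidneys labelled C3-/-, and 12.5% higher and 13.3% lower in WT kidneys. Their median log2 difference was -0.13 in kidneys labelled C3-/-, where that of all genes tested was -0.06, and -0.12 in WT kidneys, where that of all genes was -0.11. The number called varied with the libraries used. In number set 1 alone 3 granule genes were called in kidneys labelled C3-/- and 7 in WT kidneys, where 4118 and 9925 of 17673 genes tested were called in all. With replicate 2 or 3 of the glycerol libraries labelled C3-/- left out 2 and 1 were called in kidneys labelled C3-/-. Without replicate 1 or replicate 3 of that group 5 were called in WT kidneys.

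Ptprn2, the paralog of Ptprn, which encodes the granule protein phogrin, had a mean of 26.8 ± 29.3 normalized counts after glycerol and 19.2 ± 7.38 after PBS in libraries labelled C3-/-, and 8.64 ± 6.52 after glycerol and 15.7 ± 5.95 after PBS in WT libraries (SD, n = 4 each). In all 16 libraries neither glycerol comparison of Ptprn2 was past the threshold, at -0.85 ± 1.11 in kidneys labelled C3-/- (limma, adjusted p = 0.62) and -1.3 ± 1.11 in WT kidneys (adjusted p = 0.409). In number set 1 alone Ptprn2 was called after glycerol in kidneys labelled C3-/-, between genotypes after glycerol and for the interaction. For the interaction it was called higher, that is a higher glycerol response in kidneys labelled C3-/- than in WT. The direction of the other calls is not reported here and need not be that of the values over all 16 libraries. Scg5, the chaperone of the convertase PC2, differed by -0.26 ± 0.31 and 0.01 ± 0.31 in the same comparisons (limma, adjusted p = 0.585 and 0.99). Pcsk2, which encodes that convertase, was below the filter, with 0 to 6.55 normalized counts in the glycerol libraries labelled C3-/- and 23.7, 50.7, 19.0 and 0 in WT glycerol libraries, against at most 3.47 in any PBS library. Chga, Chgb, Scg2 and Pcsk1, granule genes that are commonly measured with Vgf, were not analysed here.

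Of the granule genes called after glycerol in WT kidneys, Cpe, which encodes carboxypeptidase E, the enzyme that trims cut peptides, was higher by 1.08 ± 0.3 on the log2 scale (limma, adjusted p = 0.0158). Ica1, which encodes an islet autoantigen of the granule surface, was higher by 0.63 ± 0.16 (adjusted p = 0.0112). Rab3a, a small GTPase of vesicle release, was lower, at -1.3 ± 0.25 (adjusted p = 0.00168). Vgf and Ptprn, at 7.76 and 7.27, were chosen for their large rise, so nothing is read from the smaller size of these 3 differences.

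Between genotypes after glycerol, 2 of the 20 granule genes were called lower in libraries labelled C3-/-, as Vgf was, and 2 higher, where 4.85% of all genes tested were called lower and 6.38% higher. The median of the 20 was 0.13, and that of all genes tested 0.04. Cpe averaged 682 ± 288 normalized counts in the glycerol libraries labelled C3-/- and 3642 ± 1424 in WT glycerol libraries, a log2 difference of -2.44 ± 0.3 (limma, adjusted p = 0.000101). Cpe was also lower after PBS, at -1.78 ± 0.3 (adjusted p = 0.00355), whereas Vgf was at or near 0 in all PBS libraries. Penk, the precursor of enkephalins, averaged 27.8 ± 10.1 and 70.7 ± 15.3 normalized counts, a difference of -1.36 ± 0.36 (limma, adjusted p = 0.0222), and its call was lost, with an adjusted p of up to 0.0626, without replicate 2 or 3 of the glycerol libraries labelled C3-/- or replicate 1 or 3 of WT glycerol. Npy, which encodes neuropeptide Y, was higher by 3.37 ± 0.49 after glycerol (adjusted p = 0.000492) and by 2.66 ± 0.49 after PBS (adjusted p = 0.00833) in libraries labelled C3-/-. Rab3a was higher by 1.54 ± 0.25 after glycerol in those libraries (limma, adjusted p = 0.00108). In number set 1 alone 10 of 20 granule genes were called between genotypes after glycerol, 7 higher and 3 lower, where 5373 of 17673 genes tested were called in all.

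**Figure D3:**
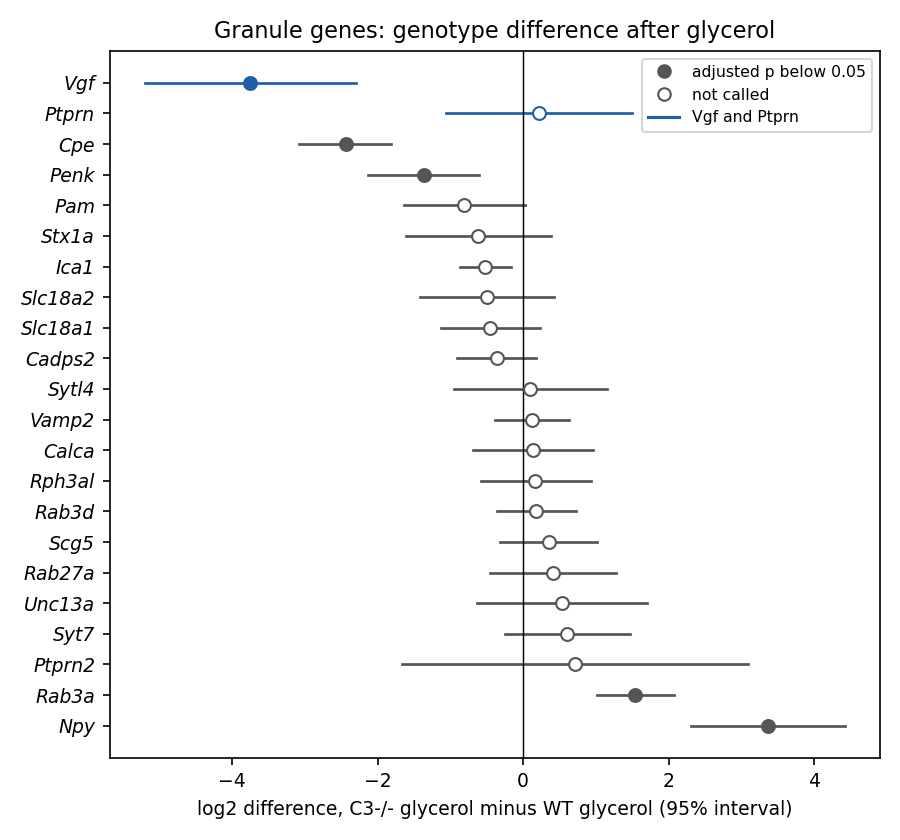
Log2 difference after glycerol, C3-/- minus WT, with its 95% interval, for Vgf and Ptprn (blue) and the 20 granule genes tested (grey), with filled points for an adjusted p below 0.05 in limma. Vgf at -3.75 is the lowest of the 22, Cpe and Penk are the other genes called lower, and the interval of Ptprn spans 0.

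A list of 20 neurotrophins, neurotrophin receptors, CREB-family factors and activity-induced genes was described, all of which were tested. Not all of the 20 are regulators of Vgf. After glycerol 3 were called higher in kidneys labelled C3-/-, where 3.68% of all genes tested were, and 4 in WT kidneys, where 12.5% were, and none was called lower. Nptx2 is among the 3 and the 4, and it could pass the filter only through glycerol libraries, so these counts support nothing. Their median log2 difference was 0.26 in kidneys labelled C3-/- and 0.08 in WT kidneys, and that of all genes tested was -0.06 and -0.11. In number set 1 alone 7 were called higher and 1 lower in kidneys labelled C3-/-, and 4 higher and 3 lower in WT kidneys. Of 17673 genes tested there, 2213 were called higher and 1905 lower in kidneys labelled C3-/-, and 4736 higher and 5189 lower in WT kidneys. Crem, a CREB-family factor, was higher after glycerol in WT kidneys, by 1.25 ± 0.22 (limma, adjusted p = 0.000829), and differed by 0.2 ± 0.22 in kidneys labelled C3-/- (adjusted p = 0.552). After glycerol Crem was lower in libraries labelled C3-/- than in WT libraries, like Vgf, at -1.46 ± 0.22 (limma, adjusted p = 0.00053). The median of the 20 genes in that comparison was -0.49, and that of all genes tested 0.04. Of the 20 genes 2 were called higher in it and 1 lower, where 6.38% of all genes tested were called higher and 4.85% lower. Arc, an activity-induced gene, was called higher in it, at 1.17 ± 0.31 (limma, adjusted p = 0.0231). That call was lost without replicate 2 or 4 of the glycerol libraries labelled C3-/- or replicate 1 of WT glycerol, with an adjusted p of up to 0.0651.

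Nptx2, which encodes a secreted pentraxin of synapses, was near 0 after PBS like Vgf and Ptprn. It averaged 36.6 ± 40.5 normalized counts after glycerol and 0.643 ± 0.435 after PBS in libraries labelled C3-/-, and 94.6 ± 100 after glycerol and 0.467 ± 0.542 after PBS in WT libraries (SD, n = 4 each). These levels are a description, without a test, because no PBS library could carry the gene through the filter. Rest, which encodes a repressor known to hold neuronal genes silent in other tissues, differed by -0.55 ± 0.34 after glycerol in kidneys labelled C3-/- and by -0.41 ± 0.34 in WT kidneys (limma, adjusted p = 0.296 and 0.385). Rest belonged to a list of 9 neuroendocrine regulators, of which 3 were tested. In all 16 libraries none was called in either glycerol comparison or between genotypes after glycerol, where limma gave none an unadjusted p below 0.05. In number set 1 alone Hif1a, a factor of the response to low oxygen, was called higher after glycerol in both genotypes.

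Markers of other cells that carry dense-core granules were examined beside the 2 genes. Of 12 neuron markers, 10 had values and 9 were tested. Their summed normalized counts lay between 600 and 2075 in the glycerol libraries labelled C3-/- and between 288 and 431 in the PBS libraries of that label, and between 779 and 1186 in WT glycerol libraries and between 356 and 388 in WT PBS libraries. After glycerol 2 were called higher and none lower in kidneys labelled C3-/-, and 3 higher and 2 lower in WT kidneys. Of all genes tested, 3.68% were called higher and 1.96% lower in kidneys labelled C3-/-, and 12.5% and 13.3% in WT kidneys. Nefm, counted as higher in both, and Tubb3, counted as higher in WT, could pass the filter only through glycerol libraries, so the counts of higher genes support nothing. Uchl1, an abundant neuronal ubiquitin hydrolase, was higher by 4.8 ± 0.48 in kidneys labelled C3-/- and by 2.94 ± 0.48 in WT kidneys (limma, adjusted p = 5.83e-05 and 0.000537). Its mean was 568 ± 465 normalized counts after glycerol and 17.0 ± 8.33 after PBS in libraries labelled C3-/-. In WT libraries its mean was 638 ± 90.8 after glycerol and 82.8 ± 17.2 after PBS (SD, n = 4 each). Most of the rise in the summed counts was thus that of Uchl1 alone. Nefm, a neurofilament subunit, averaged 47.1 ± 33.6 normalized counts after glycerol and 4.83 ± 3.38 after PBS in libraries labelled C3-/-, and 141 ± 73.9 after glycerol and 7.24 ± 4.21 after PBS in WT libraries (SD, n = 4 each), which is given without a test. Syp, the synaptic vesicle protein synaptophysin, differed by 0.03 ± 0.25 in kidneys labelled C3-/- (limma, adjusted p = 0.945) and was lower in WT kidneys, at -1.35 ± 0.25 (adjusted p = 0.00115). Rbfox3, which marks neuronal nuclei, had at most 40.7 normalized counts in any library. The part of these cells in the values of Vgf and Ptprn was not tested.

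Of 9 markers of the adrenal medulla, 2 had values (Ddc and Slc18a1), and both are also known outside it. Ddc was called lower after glycerol in both genotypes, the opposite direction to Vgf and Ptprn, at -1.35 ± 0.32 in kidneys labelled C3-/- and -1.21 ± 0.32 in WT kidneys (limma, adjusted p = 0.0233 and 0.0129), and in kidneys labelled C3-/- its call was lost without replicate 1, 2 or 3 of the PBS libraries, with an adjusted p of up to 0.0849. The summed counts of the 2 markers were 2336 to 4282 after glycerol and 5920 to 7219 after PBS in libraries labelled C3-/-, and 1873 to 4634 after glycerol and 5857 to 7271 after PBS in WT libraries. The adrenal cortex marker Star was the only 1 of 6 tested, at -0.11 ± 0.26 in kidneys labelled C3-/- and 0.71 ± 0.26 in WT kidneys after glycerol (limma, adjusted p = 0.788 and 0.0586). Of 5 Schwann cell markers 2 were tested and neither was called after glycerol in either genotype, where limma gave neither an unadjusted p below 0.05. Markers of pancreatic islets were not analysed here.

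The genes whose values ran most like those of the 2 members were named from 12617 genes with a mean of at least 50 normalized counts, by Pearson's correlation of log2(normalized count + 1) over the 16 libraries. For Vgf these were Nolc1 (r = 0.979), Clic1 (0.978), Bak1 (0.977), Socs3 (0.976), Lcn2 (0.975) and Tuba1c (0.975). For Ptprn they were Myc (r = 0.982), Eif4ebp1 (0.975), Yars (0.974), Rcc2 (0.972), Gsta1 (0.97) and G6pdx (0.969). Vgf and Ptprn correlated with each other at r = 0.892, where Ptprn ranked 381st by likeness to Vgf and Vgf 219th by likeness to Ptprn. These values are a description, since all points share the glycerol and PBS groups, which alone give high correlations. In number set 1 alone, over 13 libraries, the closest genes were Psmd11 and Eif4a1 to Vgf (r = 0.988 each) and Cad (0.989) and Rcc2 (0.986) to Ptprn. Among the 6 closest genes of each member there, Rcc2 was the only one also named above.

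The choice of these genes by likeness in part fixes their genotype differences after glycerol, which are given without a test. The log2 differences, C3-/- minus WT, lay between -3.01 (Socs3) and -0.46 (Nolc1) for the 6 genes named for Vgf, and between -0.14 (Eif4ebp1) and 0.61 (Gsta1) for the 6 named for Ptprn. For the 6 genes closest to Vgf in number set 1, the differences over all 16 libraries lay between -2.52 (Hmga1) and 0 (Clptm1l). Socs3, an inhibitor of cytokine signalling, averaged 363 ± 217 normalized counts after glycerol in libraries labelled C3-/- and 2531 ± 674 in WT libraries, and Lcn2 averaged 3718 ± 2855 and 18904 ± 9583. Myc, a growth-promoting transcription factor, averaged 1372 ± 488 normalized counts after glycerol in libraries labelled C3-/- and 1314 ± 350 in WT libraries. Gsta1, a glutathione transferase, averaged 5888 ± 1985 and 3837 ± 1140 (SD, n = 4 each). In Socs3 every glycerol library labelled C3-/- stood below every WT glycerol library, as in Vgf, and in Myc the groups overlapped, as in Ptprn.

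**Figure D4:**
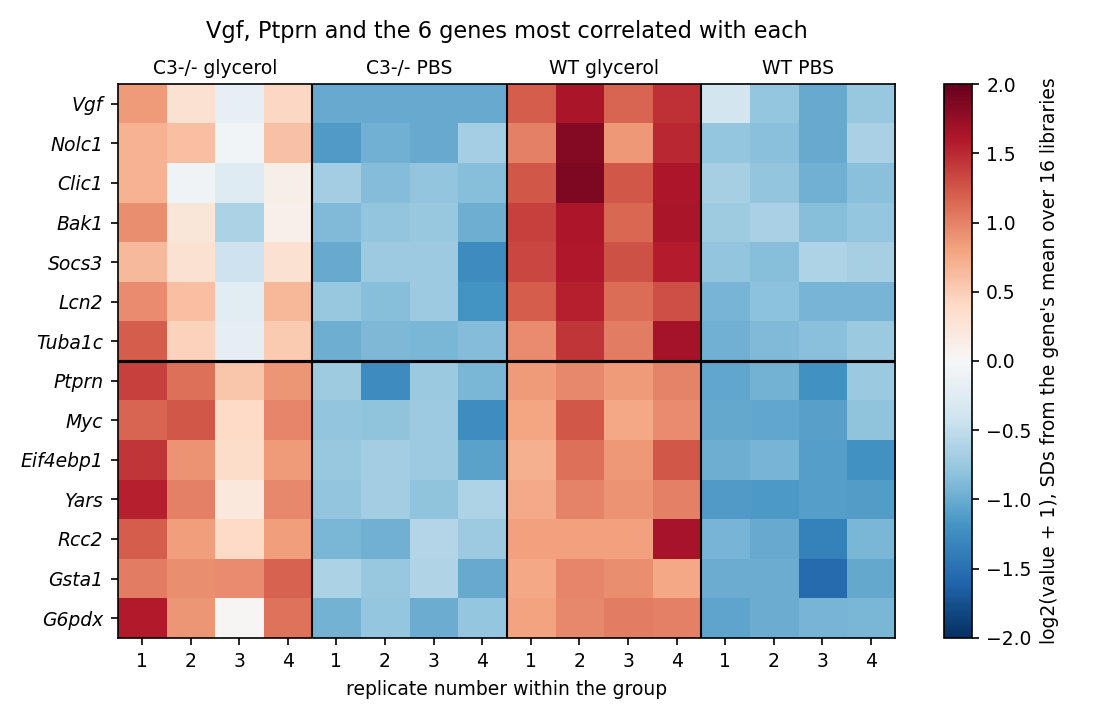
Values of Vgf with its 6 most correlated genes (above the line) and Ptprn with its 6 (below it) in 16 libraries, as log2(value + 1) in SDs from each gene's mean, red for high and blue for low, with columns ordered by group and replicate. For Vgf each glycerol library labelled C3-/- is paler than the WT glycerol libraries, and replicate 3, with 7.83 normalized counts, is the lowest of them.

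Genes next to the members changed less after glycerol than the members, which were chosen for the size of their rise. Ap1s1, on the opposite strand 1642 bases from Vgf, was higher after glycerol by 0.48 ± 0.12 in kidneys labelled C3-/- and by 0.91 ± 0.12 in WT kidneys (limma, adjusted p = 0.0253 and 7.7e-05). In kidneys labelled C3-/- its call was lost over omissions of 1 library, with an adjusted p of up to 0.0903, without replicate 1 of the glycerol libraries or without replicate 1, 2 or 3 of the PBS libraries. Dnajb2, 1335 bases from Ptprn on the opposite strand, differed by 0.81 ± 0.31 and 0.48 ± 0.31 (limma, adjusted p = 0.135 and 0.28). Ptprn overlaps the antisense gene Gm28294 over 189 exonic bases, and no source used here gives the strand setting of the counting. Reads of Ptprn and Gm28294 cannot be told apart there.

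In the authors' deposited table of C3-/- and WT after glycerol, the log2 fold change of Vgf was -3.38 with a standard error of 0.72 and an adjusted p of 7.77e-05, and that of Ptprn was 0.62 with a standard error of 0.55 and an adjusted p of 0.508. The direction of that table, C3-/- over WT, was read here from the group means, so its signs are not independent of them. In the authors' deposited tables of glycerol against PBS, Vgf had log2 fold changes of 8.16 in C3-/- and 9.01 in WT, and Ptprn of 7.75 in C3-/- and 7.52 in WT. The value of 8.16 for Vgf in the authors' deposited table was set against PBS libraries that are all listed at 0, and it depends on how that fit treated zeros.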

How the data were processed

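RNA sequencing of kidney sections was deposited as 1 matrix of normalized counts (a signal per gene, whose scale is not that of raw reads) for 20525 genes and 16 libraries. The submitters' processing notes name the build GRCm38, the aligner STAR 2.7.1, DESeq2 and R 3.6.1, and the gene identifiers are those of Ensembl, per the file headers. No source used here names the counting program or its strand setting. In 3 further tables the authors gave, for a comparison each, the mean signal, the log2 fold change and its error, a test statistic (a score, not used here) and p-values with and without adjustment. Whole reads could not be recovered (between 1.78% and 2.11% of a library's values were multiples of its smallest value, to within 0.01), so no count model was run, and precision rests on the spread between 4 libraries per group. No 2 libraries held identical values.

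Groups came from the sample titles. Values were tested as log2(normalized count + 1) in limma 3.58.1 (R 4.3.3), with 1 coefficient per group, a mean-variance trend and Benjamini-Hochberg adjustment over the 18035 genes tested, at a threshold of 0.05. For each gene the groups share 1 estimate of the spread, in the main fit and in every alternative. Log2 differences understate the change of genes with low values. The fit was tested on simulated data with the same spread in every group and changes only in genes with higher means than Vgf and Ptprn. That setting differs from the values of Vgf, and nothing is read from it for either gene. Alternatives were an added constant of 8, no filter on low values, rescaling by trimmed-mean (TMM) factors of the deposited values, number set 1 alone, terms for number set and Y-linked transcripts, the replicate number as a block, and leaving out each library. The number sets were read from the sample descriptions, which do not say what they mark.

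Vgf, Ptprn and the gene lists were chosen with earlier results of these data known. Named were the members of those lists that were called (up to 6 per list and comparison by smallest p), a fixed set (Ptprn2, C3ar1, C1qbp, Pcsk1, Pcsk2, Cpe, Chga, Chgb, Scg2, Scg5 and Rest) and the 6 genes most correlated with each member, excluding predicted genes. C3, Ddx3y, Xist, kidney markers and neighbouring genes were named as checks. Others were named after their values were seen: Krt20, Star, Rbfox3 and Nphs1 as list members that were not called. Positions are from GENCODE M21, and sequences from RefSeq. Some members of the lists are counted but not reported here by name.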

Additional observations from a re-analysis of the deposited data

How the results depend on the processing

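The difference in Vgf between genotypes after glycerol kept its direction and its call in all 22 alternatives (log2 -4.37 to -3.11, adjusted p 0.000374 to 0.0108). All of them share 1 estimate of the spread over the groups, and all use the glycerol values for which Vgf was chosen. The interaction of Vgf was past the threshold only with 8 added in place of 1 (-3.18, adjusted p = 0.0491), and its adjusted p ranged up to 0.506. Nothing is read from that crossing, since the genes were chosen on their glycerol responses. Ptprn did not pass the threshold in either comparison under any alternative. Its genotype difference after glycerol was negative with number set and Y-linked terms (-0.36) and without replicate 1 of the glycerol libraries labelled C3-/- (-0.28), and ranged between -0.28 and 0.76 over omissions of 1 library. The interaction of Ptprn turned positive with 8 added (0.09), in number set 1 (0.07), with number set and Y-linked terms (0.17), and over 6 omissions of 1 library (0.45, 0.02, 0.16, 0.11, 0.01 and 0.2), with a range of -0.59 to 0.45. With 8 added, the descriptive glycerol differences were 5.61 for Vgf in WT, and 5.81 in kidneys labelled C3-/- and 5.72 in WT for Ptprn. Over omissions of 1 library the last ranged between 6.98 and 7.57. The cause was not tested.

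Counts of called genes moved with the libraries used. After glycerol 1016 genes were called in kidneys labelled C3-/- (4118 in number set 1, 3393 with number set and Y-linked terms, 491 to 2785 over omissions of 1 library) and 4666 in WT kidneys (9925 and 8886 under the same changes). Between genotypes after glycerol 2025 were called (5373, 6068, and 1361 to 4367 over omissions, the last without WT glycerol replicate 4). For the interaction 79 were called (1845, 1580, 38 to 211 over omissions, and 141 with 8 added). Granule genes called were 0 in kidneys labelled C3-/- (3 in number set 1, 2 with the terms, 0 to 2 over omissions), 3 in WT kidneys (7, 8 and 3 to 5) and 4 between genotypes after glycerol (10 and 11).

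Replicate numbers were not used as pairs in the main fit. Correlations of same-numbered deviations ranged between -0.69 and 0.38. Libraries with different numbers were not compared, so these values cannot show whether the numbers pair the libraries. With the replicate block, 632 genes were called in kidneys labelled C3-/- and 41 for the interaction, and Vgf differed between genotypes by -3.75 (adjusted p = 0.00284). The block also ended the glycerol calls of C1qbp in WT kidneys (adjusted p = 0.0593) and Ap1s1 in kidneys labelled C3-/- (adjusted p = 0.0737). Unknown depth and values at 0 limit what can be said of Vgf after PBS.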
